A study of Rattus norvegicus with 24 samples.

Results

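Copper shortage was compared with copper adequacy in the livers of rats that ate a diet with 10% sucrose. The comparison was set by the sample labels: the 6 arrays labelled Low Cu/10% sucrose against the 6 labelled High Cu/10% sucrose, 12 of the 24 arrays of the study, over all 18643 genes that could be measured. The study is a model of fatty liver in which copper and sucrose were crossed, and the other 12 rats ate 30% sucrose and entered here only through the spread of the fit. All were male Wistar rats, 6 months old at the start and 9 months at the end, and were fed a purified diet based on AIN76A for 12 weeks. The low copper diet held less than 0.3 mg/kg copper, and the adequate diet, called high copper in the sample labels, held 125 mg/kg. Beside the sucrose, starch and dextrin made up the carbohydrate in both. Each array, of the one-colour Cy3 kind, carried liver RNA of 1 rat. Whole liver holds hepatocytes, macrophages, vessel and bile duct cells and blood, and in such samples fewer cells of a type and less RNA per cell cannot be told apart.

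Copper enters hepatocytes through the importer Slc31a1, is handed to enzymes by chaperones such as Atox1 and Ccs, and leaves through the pumps Atp7a and Atp7b, into bile or bound to ceruloplasmin (Cp). Enzymes that need it include cytochrome c oxidase in mitochondria and the superoxide dismutases. Metallothioneins are small cysteine-rich proteins that bind spare copper and zinc, and their genes are switched on by the metal-sensing factor Mtf1 at metal response elements. The liver is the main store of copper, and rodents short of it have long been known for altered cholesterol, iron handling and blood formation.

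The arrays lay on 3 slides of 8, and the slide did not run evenly across the diets. Low copper rats 1 to 4 lay on slide 2, which held none of the adequate copper rats at 10% sucrose. Low copper rats 5 and 6 shared slide 3 with all 6 adequate copper rats, so a comparison free of slide has 2 rats on one side and 6 on the other, and for the other 4 low copper rats slide and copper cannot be told apart. A rat number did not tie a low copper rat to an adequate copper rat. A level is the log2 of a gene's signal minus the same array's 75th percentile, and differences are low minus adequate copper on that log2 scale, and p-values are from limma with Benjamini-Hochberg adjustment over all genes. The rats were housed singly, and litters are not stated. Over the 12 arrays the 75th percentile lay between 527 and 1001 signal units, the local background between 38 and 44, and the share of probes well above background ran from 59.9 to 71.0%. Of the hepatocyte genes measured, 26 of 26 were well above background in each of the 6 adequate copper rats, with albumin (Alb) between 8.31 and 9.00.

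One low copper rat stood apart before any test. In rat 2, on slide 2, the median of 25 inflammatory cytokine and chemokine genes lay 1.56 above the adequate copper mean, that of 21 macrophage genes 1.86 above, and that of 34 genes of fatty acid oxidation 0.86 below it (-0.86). Its level of Lcn2, lipocalin 2 of neutrophils and inflamed liver, was 6.36, while the other 11 rats lay between -3.02 and 0.97. Calls and list medians are given also without it where that ended a call or moved a list's median by over 1.5 times.

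Metallothionein genes are a well known readout of liver copper and zinc, and their promoters carry the elements that Mtf1 binds. The 250 bases before the start of Mt1 (chr19:10832976-10833225, minus strand) and of Mt2A (chr19:10838709-10838958, minus strand; both RefSeq, GRCr8) are printed with the core letters of a metal response element in capitals, TGCACNC or TGCGCNC on either strand.
Mt1: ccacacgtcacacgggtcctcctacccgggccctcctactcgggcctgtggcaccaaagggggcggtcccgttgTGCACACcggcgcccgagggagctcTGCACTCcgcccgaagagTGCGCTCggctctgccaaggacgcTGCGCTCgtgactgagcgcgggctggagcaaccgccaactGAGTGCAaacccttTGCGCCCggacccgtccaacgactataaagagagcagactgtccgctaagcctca
Mt2A: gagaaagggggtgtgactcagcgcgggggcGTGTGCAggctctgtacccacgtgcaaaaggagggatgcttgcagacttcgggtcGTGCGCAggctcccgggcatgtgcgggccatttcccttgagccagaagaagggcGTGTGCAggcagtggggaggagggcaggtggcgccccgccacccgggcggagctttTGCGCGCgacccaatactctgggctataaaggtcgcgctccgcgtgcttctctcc
The Mt1 window held 6 matches, 5 on the gene's strand and 1 on the other, and the Mt2A window 4, with 1 and 3. Of 33469 rat promoter windows of that length 20.6% held at least 1 match, 0.266% held 4 or more and 0.0269% held 6 or more. These are matches of letters, and no binding was measured.

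On the arrays both genes had lower means on low copper, without passing the test over all genes. Mt1a (now Mt1; probe on chromosome 19, 11261631 to 11261690, rn4) was at 5.79, 6.65, 5.10, 6.16, 4.64 and 4.55 in low copper rats 1 to 6, and at 6.71, 6.53, 5.90, 5.66, 6.43 and 7.01 in adequate copper rats 1 to 6. The 2 low copper rats of slide 3 were the lowest of the 12, below all 6 adequate copper rats, while of the slide 2 rats 1, 2 and 4 lay within the adequate range and rat 3 below it. The difference was -0.89 (SE 0.43, adjusted p = 0.181), with -1.78 on slide 3 and -0.45 for the slide 2 rats. On slide 3 alone its unadjusted p was 0.00472 (SE 0.56), and after adjustment 0.577.

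Mt2A (chromosome 19, 11267834 to 11267893, rn4) ordered the rats much like Mt1a. Its low copper levels were 3.27, 4.64, 2.60, 4.08, 2.45 and 2.12, and its adequate copper levels 4.59, 4.04, 3.51, 3.37, 4.04 and 4.66. Again rats 5 and 6 were the lowest of all, rats 1 and 3 also lay below the adequate range, and rat 2 stood near its top. The difference was -0.84 (SE 0.54, adjusted p = 0.349), with -1.75 on slide 3 and -0.39 for the slide 2 rats (slide 3 unadjusted p = 0.0182, adjusted 0.651). Another member, Mt4, which is known from squamous epithelium and was dim here, went the other way: it ranged over -3.87 to -2.54 (median -3.07) on low copper and -4.18 to -3.71 (median -3.98) on adequate copper, and rose by 0.86 (adjusted p = 0.00741), with 0.27 on slide 3 and 1.16 for the slide 2 rats.

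Of 22 genes of the metallothionein and zinc list (Slc30 zinc exporters, Slc39 importers, Mtf1), 17 had a negative difference, and the median was -0.16 against 0.05 over all genes. It was -0.08 without low copper rat 2 and -0.05 under normexp background correction. Only Mt4 passed the test, among 18% of all genes called higher and 0.595% called lower in this comparison. On slide 3 both low copper rats lay below all 6 adequate copper rats for 2 of the 22, Mt1a and Mt2A, where 1.79% of all genes did so. Slc30a10, a manganese exporter, differed by -0.51 (SE 0.24, adjusted p = 0.166), and its values were -0.53 on slide 3 and -0.49 for the slide 2 rats.

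**Figure D1:**
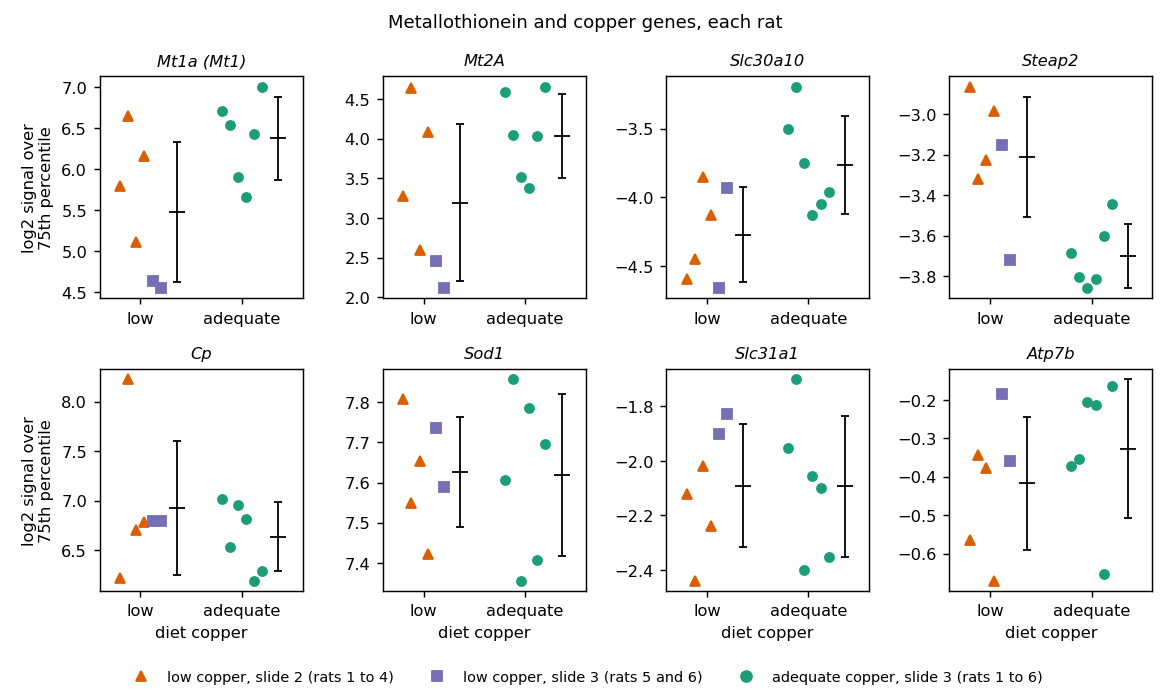
Level of 8 copper and zinc genes in each rat, in log2 units relative to its array's 75th percentile (vertical axis, scale differs by gene), for low and adequate copper at 10% sucrose; triangles are low copper rats of slide 2, squares low copper rats of slide 3, circles adequate copper rats, and bars the mean and SD over 6 rats. For Mt1a and Mt2A the 2 squares lie below all circles, and at least 2 of the 4 triangles lie among the circles.

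Few genes that move or use copper passed the test. Among 17 genes of copper transport, chaperones and metalloreductases 1 rose and 0 fell, with a median of -0.09, and 0 passed without low copper rat 2. The riser was Steap2, a metalloreductase that also acts on iron, with -3.72 to -2.86 (median -3.19) on low copper and -3.86 to -3.44 (median -3.74) on adequate copper, a difference of 0.49 (SE 0.17, adjusted p = 0.0408) and 0.27 on slide 3 and 0.60 for the slide 2 rats. Its ranges overlapped, the call was lost without any 1 of 9 of the 12 rats, and the difference was 0.34 under normexp background correction (adjusted p = 0.108). The differences were 0.00 for the importer Slc31a1, -0.11 for Atox1, -0.22 for Ccs, 0.30 for Atp7a and -0.09 for Atp7b, with adjusted p-values of 0.995, 0.609, 0.234, 0.524 and 0.68.

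No gene of 23 copper enzymes passed the test in either direction, with or without low copper rat 2. Cp had 6.23 to 8.23 (median 6.79) on low copper and 6.19 to 7.02 (median 6.67) on adequate copper, and rat 2 was the highest of the 12 at 8.23. Its difference was 0.29 (SE 0.27, adjusted p = 0.55), and 1 of its 2 other probes had the opposite sign, as had the other probes of Atp7b, Khk and Col1a1. For Sod1, the copper and zinc superoxide dismutase of the cytosol, it was 0.01 (SE 0.11, adjusted p = 0.975), and for its secreted relative Sod3 -0.09 (adjusted p = 0.787). Of 30 genes of iron and heme 0 passed, with a median of -0.07, and 1 was lower without low copper rat 2. Hamp, the iron hormone hepcidin, differed by -0.08 (adjusted p = 0.907). Blvra, biliverdin reductase, was below all 6 adequate copper rats in both slide 3 rats, at -0.68, and its overall difference was -0.40 (adjusted p = 0.159). It was the gene that passed without rat 2 (-0.54, adjusted p = 0.0378).

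Over all genes the comparison was lopsided. With 6 against 6 rats 3469 of 18643 genes passed an adjusted p of 0.05 (18.6%, and 5233 at an unadjusted p). Of these 3358 were higher (18% of all genes) and 111 lower (0.595%) on low copper. These shares are the background for the counts of calls in each list. For the counts of positive differences the background is 58.3% of all genes, with 57% on slide 3 and 58.2% for the slide 2 rats. With the median of the array in place of the 75th percentile the split was 2475 higher and 1961 lower, and the median over all genes moved from 0.05 to -0.16, so the sign of small differences depends on that scaling. It was 1680 and 381 with quantile normalization and 1549 and 396 in the authors' table. On slide 3, with 2 against 6 rats, 0 genes passed (limma; 1252 at an unadjusted p, 6.72%, of which 5.53% of all genes higher and 1.19% lower), and between the 4 rats of slide 2 and the 6 adequate copper rats 4286 did (23%), 4048 higher (21.7%) and 238 lower (1.28%). The latter split was 3136 higher and 4864 lower with median scaling, 2408 and 1192 with quantile normalization, and 2336 and 1298 in the authors' table. Within low copper, the 4 rats of slide 2 differed from the 2 of slide 3 in 1425 genes (7.64%), 1407 of them higher on slide 2 (7.55%) and 18 lower (0.0966%). That split was 872 and 144 with median scaling, 724 and 105 with quantile normalization, and 697 and 110 in the authors' table, and without low copper rat 6 the count was 396. Without that rat 17 genes passed on slide 3, where the 1 low copper rat left was taken to vary like the other groups. A fit with slide as a block amounted to the slide 3 comparison, so its 0 genes passed (1252 at an unadjusted p) are no further result.

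The genes called higher were mostly dim. The genes were split into 3 equal classes by mean signal. Of the dim class 36.5% were called higher, of the middle class 16% and of the bright class 1.56%, while 0.274, 0.483 and 1.03% were called lower. The median difference was 0.50 in the dim, 0.04 in the middle and -0.03 in the bright class. Genes called higher had a median level of -4.48 in the adequate copper rats against -1.76 for all genes. In the dim class the 4 low copper rats of slide 2 had medians 0.54 to 0.71 above the adequate copper mean, rats 5 and 6 stood at 0.28 and 0.08, and the adequate copper rats at -0.13 to 0.11. In the bright class all 12 rats lay between -0.12 and 0.09. The median difference of the genes called higher was 1.21 for the slide 2 rats and 0.43 on slide 3, where 95.2% of them were above 0. The part of slide in these differences was not tested beyond these values.

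**Figure D2:**
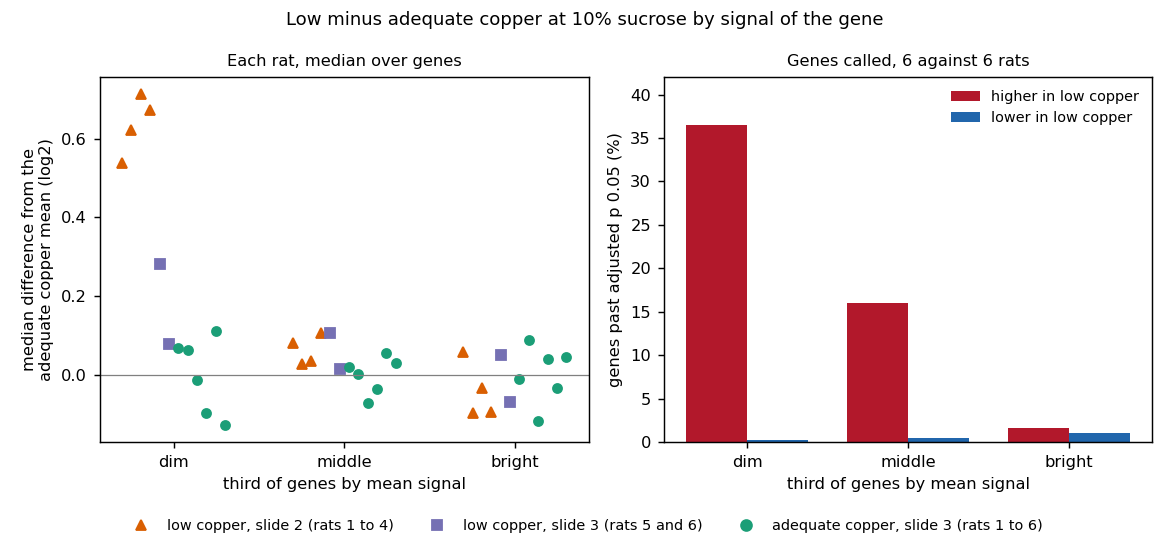
Left, for each of 12 rats, the median over genes of the difference from the adequate copper mean (log2, vertical axis), in the dim, middle and bright class of genes; symbols give diet and slide. Right, the percentage of genes of each class called higher or lower on low copper at an adjusted p of 0.05; the 4 slide 2 rats stand above the others in the dim class, where 36.5% of genes were called higher.

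Gene families that the liver is not known to use were dim and had many calls. Of 327 odorant receptor genes, the smell receptors of the nose, 257 were called higher (78.6%, against 36.5% of the dim class) and 0 lower, with a median of 1.32 for the slide 2 rats and 0.44 on slide 3, against 0.64 and 0.16 in the dim class. Of 54 vomeronasal receptors 35 were called higher (64.8%) and 0 lower. Olr1515 (now Or1p1e) was among the largest differences, with -5.54 to -3.12 (median -3.67) on low copper and -7.00 to -5.76 (median -6.66) on adequate copper, a difference of 2.71 (SE 0.31, adjusted p = 0.000181) and 1.95 on slide 3 and 3.09 for the slide 2 rats. It was well above background in 2 of the 6 adequate copper rats and all 6 low copper rats. Ribosomal protein genes, which are bright, showed little: 2 of 93 were called higher and 1 lower.

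The largest rises were of this dim kind. Of the 10 largest, 5 were well above background in 0 adequate copper rats, so their size is uncertain. For such genes a floored fold is given, against the lowest signal that counted as above background, or the gene's own where higher. It is not a firm lower limit, because the size changed with the background correction. Among these, RGD1565498 (now Kics2, a subunit of the KICSTOR complex), had a floored fold of 5.30 and did not overlap (means -4.43 and -7.09, adjusted p = 0.000659). Under normexp its difference was 0.69 (adjusted p = 0.0134). The pheromone receptors V1rd15 (now Vom1r39) and Vom1r21 rose by 2.84 (adjusted p = 0.000898) and 2.71 (adjusted p = 0.000816), with 1.05 and 1.55 on slide 3. Sult4a1, a sulfotransferase known from brain, was well above background in 2 low copper rats and 0 adequate copper rats. It had a floored fold of 3.80 (means -4.92 and -6.99, adjusted p = 0.0408), a call lost without any 1 of 8 of the 12 rats. Its difference under normexp was 0.66 (adjusted p = 0.0545). Falls were smaller. Pex26, which anchors the import machinery of peroxisomes, fell by 1.06 (SE 0.29, adjusted p = 0.0122), with -0.81 on slide 3 and -1.19 for the slide 2 rats, and was well above background in 5 adequate copper rats and 1 low copper rat. Under normexp its difference was -0.19 (adjusted p = 0.392). Dolpp1, of the dolichol cycle, and Tex2, of membrane contacts, fell by 0.78 (adjusted p = 0.0211) and 0.74 (adjusted p = 0.0343). Under normexp they were at -0.04 (adjusted p = 0.885) and -0.31 (adjusted p = 0.112), and their calls were lost without any 1 of 4 and of 6 of the 12 rats.

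Ranges that did not overlap between the diets give another view of single genes. All 6 low copper rats lay above all 6 adequate copper rats for 954 (5.12%) and below them for 17 (0.0912%). Both slide 3 low copper rats lay above all 6 adequate copper rats for 1068 of the 3358 genes called higher (31.8% of these and 5.73% of all genes tested), against 7.53% of all genes, called or not. Both lay below for 24 of the 111 genes called lower (21.6% of these and 0.129% of all genes tested), against 1.79% of all genes. These shares rest on rats that also entered the calls, so nothing is read from them. Mmp25, the leukocyte metalloproteinase leukolysin, had -4.30 to -3.64 (median -3.92) on low copper and -5.57 to -5.03 (median -5.25) on adequate copper, with no overlap. Its difference was 1.28 (SE 0.15, adjusted p = 0.000181), with 1.27 on slide 3 and 1.28 for the slide 2 rats, and its slide 3 p was the smallest of all genes (adjusted p = 0.221). It was well above background in 3 of 6 adequate copper rats, and with normexp background correction, which was run as an alternative, the difference was 0.49 (adjusted p = 0.0353). Over the 62 called genes named here, normexp ended 16 calls (Baat, Cd8b, Chst7, Dolpp1, Igf1r, Il10, Klf1, Nr4a3, Pex26, Slc5a1, Steap2, Stim2, Sult4a1, Tex2, Tpd52l1 and Trib3), reversed 0 signs and made 35 differences smaller by more than 1.5 times, each for a gene whose adequate copper level was below the median of all genes. Quantile normalization ended 21 (Acot12, Baat, Bdh1, Cd8b, Cyp26a1, Galnt3, Haao, Hk2, Igf1r, Il10, Klf1, Kmo, Mt4, Oasl2, Pfkl, Slc25a13, Slc5a1, Socs3, Steap2, Sult4a1 and Trib3) and 23 were lost in the authors' table (Acot12, Baat, Bdh1, Cd8b, Cish, Cry2, Cyp26a1, Haao, Hk2, Igf1r, Il10, Klf1, Kmo, Mcm5, Mt4, Nr4a3, Oasl2, Slc25a13, Slc5a1, Socs3, Steap2, Sult4a1 and Trib3). In all 3 settings 31 of the 62 calls held. Leaving out low copper rat 2 ended 18 (Acot12, Baat, Bdh1, Cyp26a1, Dolpp1, Haao, Hk2, Klf1, Kmo, Oasl2, Slc25a13, Socs3, Steap2, Stim2, Sult4a1, Tex2, Tpd52l1 and Trib3).

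Herc6, an interferon-induced ubiquitin ligase, was brighter and well above background in all 12 rats. It ranged over -0.78 to 0.11 (median -0.48) on low copper and -1.77 to -0.79 (median -1.39) on adequate copper, with no overlap: the lowest low copper rat, at -0.78, stood just above the highest adequate copper rat, at -0.79. The difference was 0.93 (SE 0.18, adjusted p = 0.00133), with 1.05 on slide 3 and 0.86 for the slide 2 rats, and it stayed past the threshold with each rat left out in turn. Rhd, the rhesus antigen of the red cell membrane, rose by 1.14 (SE 0.26, adjusted p = 0.00383), with 0.98 on slide 3 and 1.23 for the slide 2 rats. Its levels were -3.68 to -2.62 (median -3.08) on low copper and -4.48 to -3.73 (median -4.25) on adequate copper, and low copper rat 1, at -3.68, nearly met adequate copper rat 1, at -3.73.

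Few genes were lower with both slide 3 rats outside the adequate copper range, and the named ones were of varied kinds. Tcf21, a transcription factor of mesenchymal cells, ranged over -3.88 to -3.05 (median -3.33) on low copper and -3.38 to -2.0 (median -2.57) on adequate copper. The other 5 adequate copper rats stood above all low copper rats, whereas rat 6, at -3.38, lay among them. It fell by 0.83 (SE 0.24, adjusted p = 0.0154), with -1.19 on slide 3 and -0.65 for the slide 2 rats. Ehd3, which recycles membrane from endosomes, had -3.45 to -2.43 (median -2.92) on low copper and -2.65 to -1.68 (median -2.32) on adequate copper and a difference of -0.63 (SE 0.18, adjusted p = 0.0155), with -0.98 on slide 3 and -0.46 for the slide 2 rats. Stim2, the calcium sensor of the endoplasmic reticulum, did not overlap between diets, with -4.63 to -3.71 (median -3.86) on low copper and -3.70 to -2.53 (median -3.38) on adequate copper and a difference of -0.68 (SE 0.20, adjusted p = 0.0171). Its call was lost without low copper rat 2 or adequate copper rat 1, and under normexp the difference was -0.27 (adjusted p = 0.187). Chst7, a sulfotransferase of sulfated sugar chains, differed by -0.85 (SE 0.29, adjusted p = 0.0393), with -1.44 on slide 3 and -0.55 for the slide 2 rats, but by -0.11 under normexp (adjusted p = 0.677). The Chst7 call was lost without any 1 of 8 of the 12 rats. Tpd52l1 differed by -0.94 (SE 0.33, adjusted p = 0.0496), with -0.91 on slide 3 and -0.96 for the slide 2 rats, and lost its call without any 1 of 10 of the 12 rats.

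**Figure D3:**
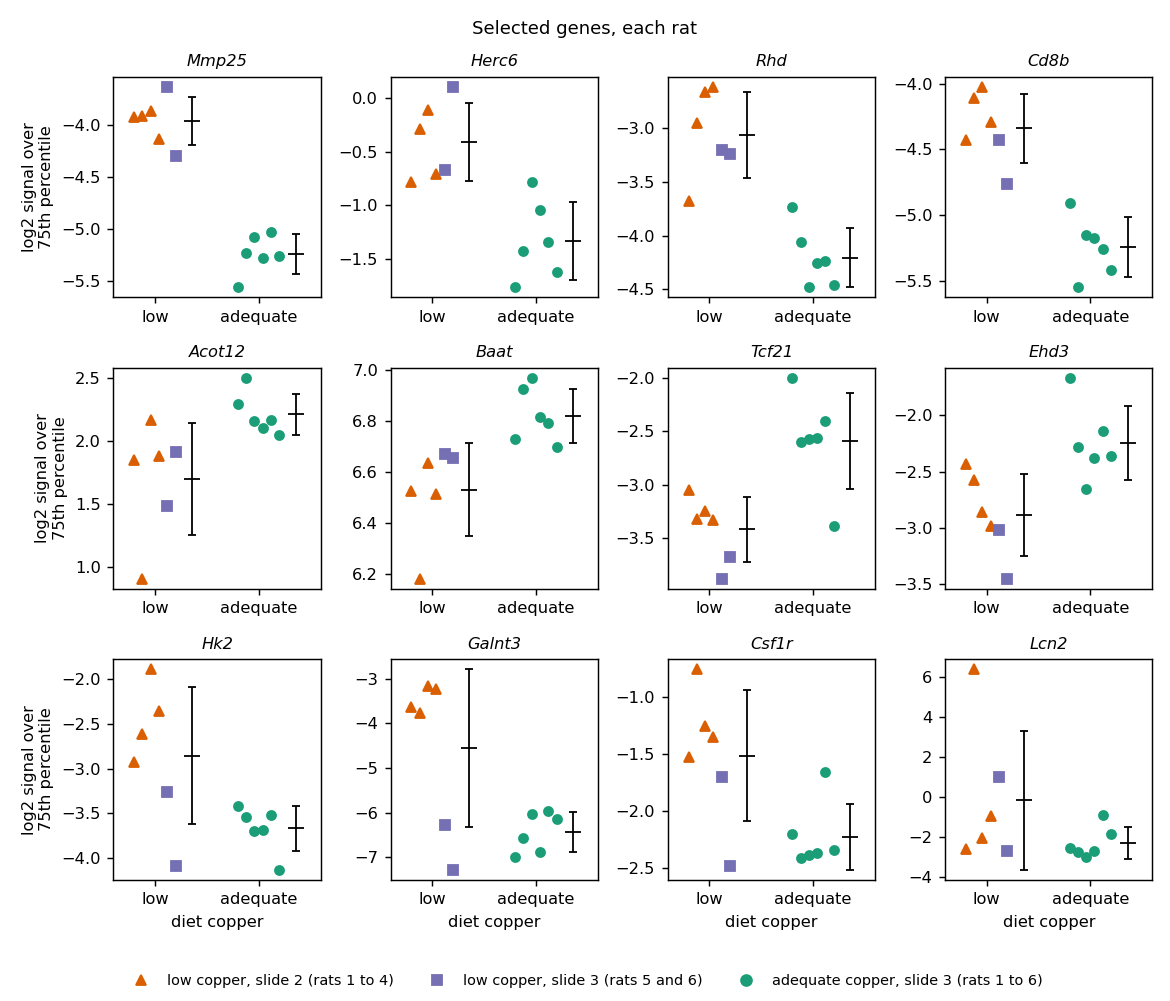
Level of 12 genes in each rat (log2, relative to its array's 75th percentile, scale differs by gene) on low and adequate copper; triangles are low copper rats of slide 2, squares low copper rats of slide 3, circles adequate copper rats, bars the mean and SD over 6 rats. Mmp25, Herc6, Rhd, Cd8b and Baat do not overlap between diets, Hk2 and Galnt3 are highest in the triangles, and Lcn2 is highest in low copper rat 2.

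Fatty acid oxidation genes, many of them targets of the nuclear receptor PPAR alpha, were on the low side as a group. Of 34 genes 2 fell and 0 rose, 4 had a positive difference, and the median was -0.24 against 0.05 over all genes. The median level of this list lay in the bright class, as did those of the amino acid, bile acid, cytochrome P450 and respiratory chain lists. That class had a median difference of -0.03, with 1.56% of genes called higher and 1.03% called lower. The median was -0.19 on slide 3 and -0.27 for the slide 2 rats, comparisons that share the 6 adequate copper rats. Without low copper rat 2 the median was -0.08 and 0 genes passed. In rats 5 and 6 the list's median deviation was -0.40 and 0.02, and in rats 1, 3 and 4 -0.14, 0.08 and -0.18, so the low copper rats differed among themselves. Over 28 alternative settings the median of this list kept its sign, as did those of 17 other lists. Of these settings 12 left out 1 rat each, and some, such as the intensity trend, could change p-values but not medians. The exceptions were the lists of Nrf2 targets (22 of 28 settings), lipogenesis (22), sugar metabolism (26), cholesterol synthesis (27), acute phase (27), macrophages (24), stellate cells (13), endothelium (24), unfolded proteins (27), clock (18), cell cycle (23) and insulin (27).

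Acot12, which splits acetyl-CoA in the cytosol, was at 1.85, 0.91, 2.17, 1.88, 1.49 and 1.91 in low copper rats 1 to 6, and at 2.05 to 2.50 (median 2.16) in the adequate copper rats. Rat 2 was the lowest by far, rat 3 lay inside the adequate range, and both slide 3 rats lay below it. It fell by 0.51 (SE 0.15, adjusted p = 0.0214), with -0.51 on slide 3 and -0.51 for the slide 2 rats. Bdh1, the ketone body enzyme of mitochondria, fell by 0.54 (adjusted p = 0.0248), with -0.30 on slide 3 and -0.66 for the slide 2 rats. Both calls were lost without low copper rat 2 (Acot12 -0.35, adjusted p = 0.0527, and Bdh1 -0.43, adjusted p = 0.0788). With that rat counted, Acot12 lost its call without any 1 of 2 of the 12 rats, and Bdh1 without any 1 of 6. Hadh, of the beta-oxidation spiral, and Slc25a20, which carries acylcarnitines into mitochondria, came close, at -0.34 (adjusted p = 0.0522) and -0.28 (adjusted p = 0.071). Cpt1a, which commits fatty acids to oxidation, differed by -0.41 (adjusted p = 0.338).

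Amino acid breakdown and the urea cycle showed 4 genes lower of 39 and 0 higher, with 6 positive differences and a median of -0.18 (slide 3 -0.15, slide 2 rats -0.20). Agxt, which clears glyoxylate, fell by 0.52 (SE 0.16, adjusted p = 0.0231). Kmo and Haao, neighbours in the kynurenine pathway of tryptophan, fell by 0.33 (adjusted p = 0.0461) and 0.51 (adjusted p = 0.0469). Slc25a13, the aspartate and glutamate carrier citrin, fell by 0.32 (adjusted p = 0.0471). On slide 3 their differences were -0.24, -0.23, -0.36 and -0.17. Without low copper rat 2 Agxt alone of the list passed (-0.50, adjusted p = 0.0458), and Agxt in turn lost its call without any 1 of 3 other rats. Kmo, Haao and Slc25a13 each lost their call without any 1 of 8 of the 12 rats.

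Bile acid genes had 1 lower and 0 higher of 20, with a median of -0.15. With low copper rat 2 left out, 0 passed and the median was -0.09. The gene was Baat, which joins bile acids to taurine and glycine, and it was among the few whose diets did not overlap in the lower direction. Its levels were 6.18 to 6.67 (median 6.58) on low copper and 6.70 to 6.97 (median 6.80) on adequate copper, a difference of -0.29 (SE 0.10, adjusted p = 0.0474), with -0.16 on slide 3 and -0.36 for the slide 2 rats. The call was lost without any 1 of 9 of the 12 rats. Cyp8b1, the sterol 12-alpha-hydroxylase, differed by -0.80 (adjusted p = 0.141), and Cyp7a1, the rate-limiting enzyme of bile acid synthesis, by -0.26 (adjusted p = 0.882). Cytochrome P450 and conjugation genes had 1 higher of 35 and 0 lower, and 7 positive differences, with 0 called without low copper rat 2. The higher one, Cyp26a1, which breaks down retinoic acid, rose by 0.92 (adjusted p = 0.0459), but its slide 3 difference was 0.01 against 1.37 for the slide 2 rats, and its call was lost without any 1 of 10 of the 12 rats.

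Cholesterol synthesis leaned up without a gene passing: 0 of 26, with 20 positive differences, and a median of 0.21 (slide 3 0.19, slide 2 rats 0.19). Mvd, of the mevalonate pathway, differed by 0.46 (adjusted p = 0.284). The highest list medians were 1.12 in low copper rat 2 and 0.57 in rat 5, against -0.34, 0.03, -0.08 and -0.21 in rats 1, 3, 4 and 6. The median was 0.03 without rat 2, and over the 28 alternative settings it ran from -0.0060 to 0.29. Lipogenesis had 0 of 25 called, a median near 0 (-0.0018) and 12 positive differences, and without rat 2 the median was -0.06. Fasn, fatty acid synthase, ranged over 2.98 to 5.94 (median 4.21) on low copper and 3.01 to 4.95 (median 3.99) on adequate copper, a difference of 0.38 (SE 0.51, adjusted p = 0.711). Scd1 differed by -0.28 (adjusted p = 0.689) and Srebf1, their regulator, by -0.17 (adjusted p = 0.675).

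Sugar metabolism had 3 higher of 28 and 0 lower. Pfkfb3, which makes the activator of phosphofructokinase, rose by 1.13 (SE 0.20, adjusted p = 0.000898), with 0.70 on slide 3 and 1.35 for the slide 2 rats. Its levels were -3.40 to -2.12 (median -2.81) on low copper and -4.23 to -3.79 (median -3.83) on adequate copper, with no overlap. Hk2, the hexokinase of muscle and fat, rose by 0.81 (SE 0.25, adjusted p = 0.022), yet its slide 3 difference was -0.01 against 1.22 for the slide 2 rats, and the low copper rats of slides 2 and 3 differed by 1.23 (adjusted p = 0.00688). Pfkl, the liver phosphofructokinase, rose by 0.51 (adjusted p = 0.0369), with 0.36 on slide 3 and 0.58 for the slide 2 rats, and lost its call without any 1 of 8 rats. Without low copper rat 2 the list had 2 higher. Khk, which starts fructose breakdown, differed by -0.01 (adjusted p = 0.979). In the lipid droplet and lipoprotein list 1 of 33 rose, Lipe (hormone-sensitive lipase), by 1.07 (adjusted p = 0.00302), with 0.33 on slide 3 and 1.44 for the slide 2 rats, and its other measured probe had the opposite sign. Mgll, which releases the last fatty acid from glycerol, differed by -0.55 (adjusted p = 0.0708).

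Respiratory chain genes had 1 higher of 39, 0 lower, and 3 positive differences, with a median of -0.10. Without low copper rat 2 the median was -0.06, with 7 positive. Uqcrq, a subunit of complex III, rose by 0.59 (adjusted p = 0.0136), with 0.16 on slide 3 and 0.81 for the slide 2 rats. Of 29 genes of oxidative stress and Nrf2 targets 1 rose. It was Slc7a11, the cystine importer that feeds glutathione synthesis. It was well above background in 5 low copper rats and 0 adequate copper rats, with means of -4.78 and -6.14 and a floored fold of 2.44 (adjusted p = 0.000816). Its levels did not overlap, and under normexp its difference was 0.44 (adjusted p = 0.0462). The floored fold sets the low copper mean against the lowest signal of any probe that counted as above background, or the gene's own where higher, in the adequate copper rats. Chac1, which degrades glutathione, and Trib3, a pseudokinase, both stress genes downstream of Atf4, made up the 2 of 26 higher in the unfolded protein response list, by 0.93 (adjusted p = 0.00566) and 0.63 (adjusted p = 0.0448), with slide 3 differences of 0.46 and 0.39. The list's median was 0.12, and 0.04 without low copper rat 2. Trib3 lost its call without low copper rat 2 or any 1 of 5 other rats.

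Interferon response genes leaned up, with few calls. Of 33 genes 2 rose and 0 fell, 31 had a positive difference, and the median was 0.28 (slide 3 0.23, slide 2 rats 0.29).  Beside Herc6, Oasl2, an antiviral oligoadenylate synthetase-like protein, rose by 0.68 (adjusted p = 0.0374), with 0.34 on slide 3 and 0.85 for the slide 2 rats, and without low copper rat 2 it was 0.45 (adjusted p = 0.101). Without that rat the list's median was 0.21 and Herc6 alone passed. Mx1 and Oas2, classical antiviral effectors, differed by 0.45 (adjusted p = 0.0819) and 0.35 (adjusted p = 0.111). The adequate copper rats varied too, with list medians from -0.48 in rat 1 to 0.34 in rat 5, and low copper rats from 0.12 to 0.62.

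Inflammatory cytokines and chemokines had 25 of 25 positive differences, a median of 0.37 and 1 call. That was Il10, which was well above background in 2 low copper rats and 0 adequate copper rats (floored fold 1.67, means -5.51 and -6.33, adjusted p = 0.00461). Under normexp Il10 differed by 0.28 (adjusted p = 0.227). Without low copper rat 2 the median was 0.05 and 17 were positive. On slide 3 17 of 25 were positive. Cxcl1, a neutrophil attractant, showed the pattern: 3.55 and 2.87 in low copper rats 2 and 5, 1.65 in adequate copper rat 2, and -3.07 to -1.0 in the other 9. Its difference was 1.39 (adjusted p = 0.447). In the acute phase list, with a median of 0.13 (0.04 without rat 2), 1 of 25 rose, Socs3, the brake of cytokine signalling, by 0.64 (adjusted p = 0.0223), and without rat 2 it was 0.55 (adjusted p = 0.0663). Crp differed by -0.28 (adjusted p = 0.201). Immediate early genes had 2 of 25 higher (8%, against 18% of all genes), with 21 positive. The 2 were Socs3 and Nr4a3, an orphan nuclear receptor well above background in 4 low copper rats and 0 adequate copper rats (floored fold 2.37, adjusted p = 0.00115). Under normexp Nr4a3 differed by 0.39 (adjusted p = 0.0828). The median was 0.48, and 0.30 without rat 2, when Nr4a3 alone passed. By rat it was 1.14 in low copper rat 5, 0.81 in rat 2 and -0.30 in rat 6.

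Neutrophil and lymphocyte genes were called higher at a share near that of dim genes as a whole. Of neutrophil genes 36.4% and of lymphocyte genes 38.1% were called higher, against 36.5% of the dim class, and the median levels of these lists over all arrays, -3.02 and -3.83, lay close to and below the upper end of that class at -3.08. Of 11 neutrophil genes 4 rose and 11 were positive, with a median of 0.90 (slide 3 0.42). Cxcr2, the chemokine receptor of neutrophils, did not overlap, with -5.29 to -3.48 (median -4.80) on low copper and -6.70 to -5.90 (median -6.42) on adequate copper and a difference of 1.75 (SE 0.32, adjusted p = 0.00115), 1.22 on slide 3 and 2.02 for the slide 2 rats. It was well above background in 5 low copper rats and 1 adequate copper rat, and under normexp the difference was 0.53 (adjusted p = 0.0345). Itgam, the integrin CD11b, rose by 0.78 (SE 0.22, adjusted p = 0.0129), with 0.58 on slide 3 and 0.88 for the slide 2 rats, and Csf3r, the receptor of granulocyte colony-stimulating factor, by 1.33 (SE 0.27, adjusted p = 0.00213), with 0.42 on slide 3 and 1.78 for the slide 2 rats. S100a8 and S100a9, the most abundant proteins of neutrophil cytosol, differed by 1.37 (adjusted p = 0.324) and 1.26 (adjusted p = 0.338), and low copper rat 2 stood alone at 0.19 and 1.02. Without that rat 4 of the 11 still passed. The summed signal of the list, as log2, was 1.57 to 6.50 in the slide 2 rats, 1.06 and 2.39 on slide 3 and 0.61 to 1.36 in the adequate copper rats.

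Lymphocyte genes showed 8 higher of 21 and 0 lower, with a median of 0.57, but 0.12 on slide 3. Cd8b, the CD8 beta chain of cytotoxic T cells, had -4.76 to -4.03 (median -4.36) on low copper and -5.55 to -4.91 (median -5.22) on adequate copper, without overlap, and rose by 0.90 (SE 0.17, adjusted p = 0.00139), with 0.65 on slide 3 and 1.03 for the slide 2 rats. Under normexp it was 0.38 (adjusted p = 0.0919). Its partner Cd8a differed by -0.08 (adjusted p = 0.918), with -0.25 on slide 3 and 0.01 for the slide 2 rats. Cd3d, of the T cell receptor complex, rose by 0.98 (SE 0.22, adjusted p = 0.00335), with 0.49 on slide 3 and 1.22 for the slide 2 rats, and did not overlap. Blnk, the B cell linker, rose by 1.22 (SE 0.25, adjusted p = 0.00216), with 0.47 on slide 3 and 1.60 for the slide 2 rats. Lck, a T cell kinase, rose by 1.10 (adjusted p = 0.00194), but its slide 3 difference was 0.36 and the low copper rats of slides 2 and 3 differed by 1.10 (adjusted p = 0.00674). With low copper rat 2 left out, 6 of the 21 passed. The summed signal was 2.35 to 2.92 in the slide 2 rats, 1.69 and 2.12 on slide 3 and 1.33 to 1.94 in the adequate copper rats. The part of leukocyte number in these differences was not tested.

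Macrophage genes split by slide. Of 21 genes 1 rose, with 17 positive and a median of 0.19, but on slide 3 the median was -0.26 with 4 positive, and for the slide 2 rats it was 0.43 with 20. Csf1r, the receptor that keeps macrophages alive, rose by 0.72 (SE 0.20, adjusted p = 0.0143), with 0.13 on slide 3 and 1.01 for the slide 2 rats. Without low copper rat 2 the list's median was -0.12, with 6 positive and 1 call. The Kupffer cell lectin Clec4f differed by -0.28 on slide 3 and 0.43 for the slide 2 rats, and the complement gene C1qa by -0.25 and 0.45. Low copper rat 6 had the lowest median of the list, -0.62.

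Red cell genes were among the highest as a group, on both slides. Of 10 measured 3 rose (30%, against 18% of all genes) and 0 fell, and 9 were positive. The median was 0.998, and on slide 3 it was 0.80, with both rats above all 6 adequate copper rats for 5 of 10 (7.53% of all genes). The 3 were Rhd, the globin Hbg1, by 1.31 (adjusted p = 0.00146) with 0.45 on slide 3 and 1.74 for the slide 2 rats, and Klf1, the erythroid master factor, by 0.63 (adjusted p = 0.0321) with 0.62 on slide 3 and 0.64 for the slide 2 rats. Klf1 lost its call without any 1 of 5 rats, rat 2 of low copper among them, and without that rat the list had a median of 0.94 with 2 calls. The adult globin Hba-a2 (now Hba-a1) was at 6.26, 7.22, 7.18, 7.85, 7.53 and 7.81 in low copper rats 1 to 6 and at 7.02, 5.91, 6.27, 7.24, 4.87 and 5.98 in adequate copper rats 1 to 6. Rats 2 to 6 of low copper lay close to or above the highest adequate copper rat, and the difference was 1.09 (SE 0.49, adjusted p = 0.137). Alas2, which starts heme synthesis in red cell precursors, differed by 1.33 (adjusted p = 0.11), with 1.55 on slide 3 and 1.22 for the slide 2 rats. Globin genes are near copies of each other, so their probes may share signal. The summed signal of the list was 6.97 to 8.65 in the slide 2 rats, 8.26 and 8.62 on slide 3 and 5.67 to 8.16 in the adequate copper rats. How much blood each sample held was not tested.

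Matrix and vessel genes had list medians of opposite sign on the slides. Of 33 stellate cell and fibrosis genes 3 rose (9.09%, against 18% of all genes). They were Tgfb2, by 1.45 (adjusted p = 0.000898), Acta2 (smooth muscle actin), by 0.75 (adjusted p = 0.00316), and Col6a3. Tgfb2 was 1.18 higher in the low copper rats of slide 2 than in those of slide 3. For Acta2 low copper rat 6, on slide 3, stood at -2.27 and the other low copper rats at -1.59 to -1.29. Col6a3 was well above background in 3 low copper rats and 0 adequate copper rats (floored fold 4.51, adjusted p = 0.00101). Under normexp Col6a3 differed by 0.64 (adjusted p = 0.0313). The list's median was 0.14 for the slide 2 rats and -0.22 on slide 3, and over 6 against 6 rats it was 0.0001, or -0.11 without low copper rat 2. Col1a1 and Col3a1, the main fibrillar collagens, differed by 0.49 (adjusted p = 0.0852) and -0.09 (adjusted p = 0.864). Of 15 endothelial genes Cdh5, the cadherin of vessel walls, rose by 0.78 (SE 0.17, adjusted p = 0.00241), with 0.45 on slide 3 and 0.94 for the slide 2 rats and no overlap, while the other 14 did not pass. The list's median was -0.18 over 6 against 6 rats and -0.31 without low copper rat 2, with -0.65 on slide 3 and 0.13 for the slide 2 rats, and low copper rat 6 was the lowest at -1.07. Of 17 bile duct and progenitor genes 2 rose (11.8%, against 18% of all genes and 36.5% of the dim class). Cd24, a surface glycoprotein, had 0.40 to 1.64 (median 1.15) on low copper and -0.69 to 0.29 (median 0.06) on adequate copper. Its difference was 1.15 (SE 0.25, adjusted p = 0.0025), with 0.62 on slide 3 and 1.41 for the slide 2 rats. Slc5a1, a glucose carrier, rose by 0.69 (adjusted p = 0.0183), with 0.51 on slide 3 and 0.78 for the slide 2 rats. The keratin Krt19 differed by 0.55 (adjusted p = 0.53). The median of that list was 0.44, and 0.51 on slide 3. It was 0.27 without low copper rat 2, 0.21 with quantile normalization and 0.19 in the authors' table.

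**Figure D4:**
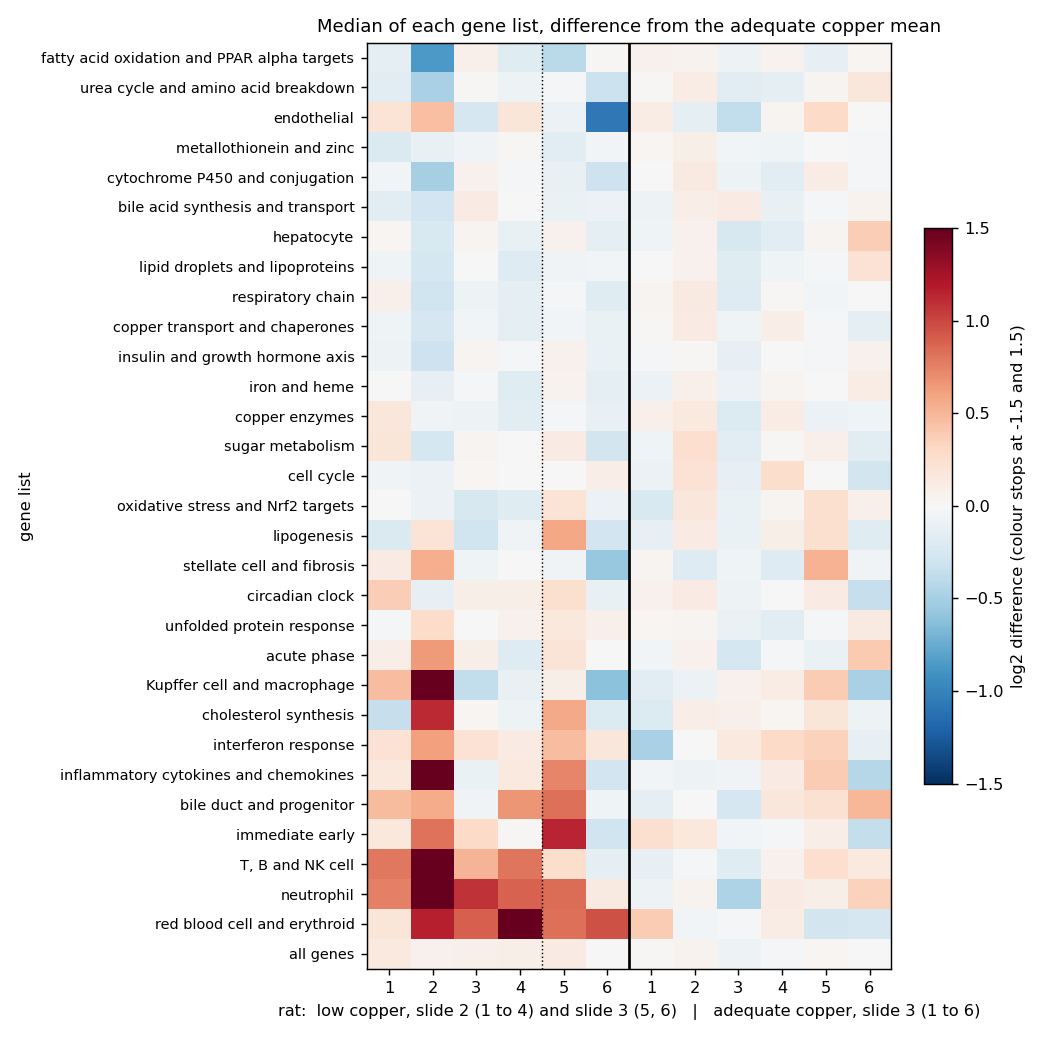
Median over the genes of each of 30 lists, and over all genes, of the difference from the adequate copper mean (log2, colour), with 1 column per rat; low copper rats of slide 2, low copper rats of slide 3 and adequate copper rats stand from left to right. Low copper rat 2 is high for macrophage and inflammatory genes and low for fatty acid oxidation, and red cell genes are high in low copper rats 2 to 6.

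Clock, cell cycle and growth lists gave few calls. Called higher were 11.1% of the clock genes, 11.1% of the cell cycle genes and 7.69% of the insulin and growth hormone genes, against 18% of all genes. Npas2, a transcription factor of the clock, rose by 0.99 (SE 0.23, adjusted p = 0.00389), with 0.69 on slide 3 and 1.13 for the slide 2 rats and no overlap, at -1.08 to 0.08 (median -0.54) on low copper and -1.91 to -1.15 (median -1.49) on adequate copper. Cry2, a clock repressor, rose by 0.78 (adjusted p = 0.0107), with 0.21 on slide 3 and 1.06 for the slide 2 rats, and the other 16 of 18 clock genes did not pass, Dbp and Per2 among them (-0.24 (adjusted p = 0.484) and 0.04 (adjusted p = 0.972)). In the cell cycle list 3 of 27 rose, the phosphatase Cdc25b by 1.04 (adjusted p = 0.00795), the helicase subunit Mcm5 by 1.14 (adjusted p = 0.00564) and E2f1 by 0.60 (adjusted p = 0.0102). Their slide 3 differences were 0.66, 0.20 and 0.36, and genes of dividing cells such as Top2a and Cdk1 differed by 0.15 (adjusted p = 0.851) and 0.27 (adjusted p = 0.624). In the insulin and growth hormone list 2 of 26 rose, Igf1r by 0.89 (adjusted p = 0.00383) and Cish, a brake on growth hormone signals, by 0.71 (adjusted p = 0.019), with 0.36 and 0.27 on slide 3. For Igf1r the adjusted p was 0.104 under normexp, 0.0519 with quantile normalization and 0.0752 in the authors' table. Igf1 itself differed by -0.03 (adjusted p = 0.92).

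None of 26 hepatocyte genes passed in either direction, the median was -0.12 (-0.06 without low copper rat 2), and their summed signal overlapped, with 11.72 to 12.04 in the slide 2 rats, 11.99 and 12.05 on slide 3 and 11.66 to 12.28 in the adequate copper rats. Cps1, which starts the urea cycle, differed by -0.50 (adjusted p = 0.202) and Alb by 0.08 (adjusted p = 0.836). Galnt3, which starts O-linked sugar chains, was among the 1425 genes that differed between the low copper rats of slides 2 and 3. It was at -3.63, -3.77, -3.15, -3.24, -6.27 and -7.28 in low copper rats 1 to 6, and at -7.00 to -5.95 (median -6.35) in the adequate copper rats. It rose by 1.87 (SE 0.51, adjusted p = 0.0117) in the comparison of 6 against 6, yet on slide 3 rat 5 lay inside the adequate range and rat 6 below it (-0.34), and the low copper rats of slides 2 and 3 differed by 3.33 (adjusted p = 6.35e-05).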

How the data were processed

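Liver RNA of 24 rats was hybridised to one-colour Agilent arrays, and 12 of these arrays are compared here. Per the file headers, the authors deposited scanner intensity values made with Agilent Feature Extraction 10.7.3.1, in which the processed signal is background-corrected, with probe positions on rn4. A second deposited table holds the authors' normalized score for each probe (quantile normalized, centred on the median and scaled, as read from its values), and other deposited columns are flags, such as well above background. Control spots (4259 of 62976) and outlier spots (0.652%) were left out. The log2 intensity minus the array's percentile 75 was averaged over spots of a probe. Probes well above background on at least 6 of 24 arrays were kept (21181 of 30367), and the brightest probe stood for a gene (18643 of 26278 names). RefSeq gave a current symbol for 11473 of these. The number of arrays limits the precision.

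The tests came from limma (version 3.58.1, under R 4.3.3, with data.table in version 1.17.8): diet means over all 24 arrays (20 residual degrees of freedom) for 6 against 6 rats, and diet-by-slide means (18) for comparisons by slide, with Benjamini-Hochberg adjustment at 0.05. Comparisons that use the 6 adequate copper rats share them. Python 3.11.15, pandas 2.3.3 and matplotlib 3.10.9 made summaries and plots. On simulated data with 200 changed genes of 18643, the 6 against 6 fit recovered 25.4, 71.6 and 98.5% of changes of 0.5, 1 and 2, and the slide 3 fit 10.4, 40.3 and 86.4%. The simulated noise was independent between genes and arrays and held no slide effect. The rates therefore do not describe the real 6 against 6 comparison, in which slide differs between the diets.

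The 30 gene lists, the comparison and its members were chosen with earlier results of these data known. Named genes were the 10 largest rises and falls, up to 5 each way for slide comparisons and for genes with both slide 3 rats outside the adequate range, up to 4 genes of each list with the smallest p, and 25 fixed copper, lipid and marker genes. Those shown outside that rule, Alas2, Alb, C1qa, Cd8a, Cdk1, Clec4f, Col3a1, Cxcl1, Dbp, Hba-a2, Igf1, Krt19, Per2, S100a8, S100a9 and Top2a, were chosen after their values were seen. Unnamed probes among the rule's genes are counted but not described.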

Additional observations from a re-analysis of the deposited data

Results flagged for a closer look

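In 14 of 216 diet groups of 6 rats, 6.48% over 108 named genes, the highest or lowest rat lay far from the nearest other by Dixon's test, which chance gives in about 1 in 20 groups. Low copper rat 2 was that rat for 6 genes, at levels of 6.18 for Baat (other low copper rats 6.51 to 6.67), 8.23 for Cp (other low copper rats 6.23 to 6.80), 6.02 for Hamp (other low copper rats 6.95 to 7.47), -1.42 for Mgll (other low copper rats -0.72 to -0.40), 0.58 for Mx1 (other low copper rats -0.53 to -0.24) and -0.41 for Oasl2 (other low copper rats -2.16 to -1.59). The others were low copper rat 6 for Acta2 at -2.27, low copper rat 4 for Alb at 8.35, adequate copper rat 5 for Blvra at -1.87, adequate copper rat 5 for Csf1r at -1.66, adequate copper rat 5 for Cyp26a1 at -3.49, low copper rat 1 for Cyp7a1 at -6.62, adequate copper rat 4 for Scd1 at 8.51 and adequate copper rat 1 for Stim2 at -2.53.

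For 14 named genes the low copper rats of slide 2 differed from those of slide 3 at an adjusted p under 0.05 (limma), always with slide 2 higher. The difference was 1.13 for Blnk, 0.87 for Csf1r, 1.36 for Csf3r, 1.36 for Cyp26a1, 3.33 for Galnt3, 1.29 for Hbg1, 1.23 for Hk2, 1.10 for Lck, 1.11 for Lipe, 1.41 for Mcm5, 0.89 for Mt4, 1.01 for Slc7a11, 1.18 for Tgfb2 and 2.69 for V1rd15. Among the 4 rats of slide 2 and the 2 of slide 3 the diet was the same, and the cause of the difference was not tested.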

How the results depend on the processing

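The count of 3469 genes for 6 against 6 rats was 2059 with normexp, 2061 with quantile normalization, 1945 in the authors' table, 1866 for probes above background on all 24 arrays, 2285 with slide as a random block, and 0 with slide as a fixed block, also after quantile normalization (0). It was 2599 to 4263 without each rat. When the test asked for a change beyond 1.5-fold, in place of any change, 6 genes passed. A fit of the brightest class alone, with p adjusted over its 6214 genes, gave 22. In the full fit 97 genes of that class were called higher and 64 lower. Counts for that class in the other comparisons came from such fits too. These fits were chosen after seeing the data, as were quantile normalization with slide and the alternatives across slides. The fixed block repeats the slide 3 comparison of 2 against 6 rats. On slide 3, 0 genes became 1 in the authors' table, 2 without a filter and 0 to 17 without each rat. Across slides 4286 became 2543 with normexp, 8000 with median scaling, 2280 above background on all arrays and 67 in the brightest class. Within low copper 1425 became 200, 829, 807, 644 and 3 with normexp, quantile, the authors' table, all arrays and the brightest class, and 396 to 1451 without each rat. With slide as a block, and so on slide 3, signs turned for ENSRNOT00000028506 (-0.25), Galnt3 (-0.34), A_64_P044832 (-0.10), AABR03066381 (-0.37) and Hk2 (-0.0080). With slide as a block after quantile normalization they turned too (-0.44, -0.51, -0.23, -0.56 and -0.0758), with Cyp26a1 at -0.10. Rat numbers paired no rats (correlations -0.206 to 0.159); with a replicate block 3579 genes passed, and 7 of 81 called genes under the naming rule lost their call. Dim signal and 2 low copper rats on slide 3 limit what can be detected.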
